A study of Mus musculus with 21 samples.

Results

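Respiratory complex I was followed through the transcripts of its nuclear-encoded subunits in 2 mouse tissues. The subunit genes were taken by symbol: Ndufa, Ndufb, Ndufc, Ndufs or Ndufv followed by a number, or Ndufab1. This gave 37 genes, each with 1 gene model, of the 28541 gene models measured, and all 37 passed the filter on low counts in every fit. The rule uses symbols only. One tissue was whole brown adipose tissue (BAT), which burns fuel for heat. The other was white vastus lateralis (WV), a thigh muscle rich in fast fibres. Each was taken from BATI4KO mice and from floxed controls, which carry the floxed allele without the deletion. BATI4KO is understood here, from knowledge of the study, as deletion of the transcription factor gene Irf4 by a Cre driven from the Ucp1 promoter, so that in WV the deletion was made in another tissue. The 21 libraries were 5 floxed and 6 BATI4KO of BAT and 5 floxed and 5 BATI4KO of WV. The sources used here give no age, sex or treatment for the mice.

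Complex I, the NADH:ubiquinone oxidoreductase of the mitochondrial inner membrane, is where electrons from NADH enter the respiratory chain. Its matrix arm holds the N module, which takes electrons from NADH, and the Q module, which passes them to ubiquinone. Its membrane arm pumps protons. In brown fat the proton gradient is spent by the uncoupling protein Ucp1, and white muscle fibres are poorer in mitochondria than red ones. Of the 37 genes, 7 encode nuclear core subunits that carry the catalytic chemistry, among them Ndufv1, Ndufv2 and Ndufs1 of the N module and Ndufs3, Ndufs7 and Ndufs8 of the Q module. Another 9 are listed here as supernumerary subunits of the matrix arm and 20 as those of the membrane arm. Each gene was listed once only, Ndufab1 under the membrane arm, which need not be its only place. Ndufa4 carries a complex I symbol but is now assigned to complex IV. It was kept because the symbol rule takes it. Counts, sums, medians and ranges of the 37 include it, also where they are called subunits, and its own values are given apart as well.

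Totals were 20219479 to 41773148 counts per library in BAT and 30479508 to 40328627 in WV. The 37 genes took 0.629% to 0.995% of the counts of a BAT library and 0.280% to 0.554% of those of a WV library. Levels are given as CPM, counts scaled to a common library total, after TMM scaling of all 21 libraries together, a scaling that assumes that most genes do not differ. Where genes are compared with each other the level is divided by the length of the gene model in kb. Irf4 had a mean of 29.2 ± 12.3 CPM over the floxed BAT libraries (SD, n = 5), with single libraries from 17.9 to 43.5 CPM, and of 5.36 ± 0.396 CPM over the BATI4KO BAT libraries (SD, n = 6), with a highest library of 5.95 CPM (log2 -2.45, edgeR quasi-likelihood adjusted p = 0.0026). In WV the log2 difference of Irf4 was -0.48 (edgeR adjusted p = 0.489). Ucp1 was at 1605 to 5692 CPM in floxed BAT and never above 0.412 CPM in WV. Libraries are named by the end of their titles, FX for floxed and KO for BATI4KO, with a number. In BAT, FX_1 to FX_3 and KO_1 to KO_3 carry short numbers, and all other libraries carry a long tag such as FX_5497. The meaning of the numbers is not stated, nor whether libraries came from different animals. The p-values therefore measure only the spread between these libraries, which may be technical. In whole tissue, fewer cells of a type and less RNA per cell cannot be told apart.

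The upstream sequences of the genes give the ground on which shared regulation is usually discussed. RefSeq promoter windows (assembly GRCm38.p6, 250 bases before to 50 bases after the start, the only use made of that build) were matched by symbol for 33 of the 37 genes. Sets of letters were searched on both strands, and a gene counted once however many matches it had. The letters of the NRF1 site (GCGCA, any base, then GCGC) occurred in 7 of 33 windows (21.2%; 5.19% of the 27025 symbols with a window): Ndufa11, Ndufa5, Ndufa6, Ndufa8, Ndufb4, Ndufs5 and Ndufs6. The YY1 letters AAGATGGC also occurred in 7 (21.2%; 3.19% of all), and in all 7, among them Ndufc1 and Ndufs7, they lay on the gene's strand within the 50 bases after the start. The estrogen-related receptor letters AAGGTCA occurred in 3 (9.09%; 5.38% of all), the ETS letters CCGGAAG in 4 (12.1%; 9.93% of all) and the GC box GGGCGG in 15 (45.5%; 38.2% of all). Letters of the interferon regulatory factors (GAAA, a pair of any bases, then GAAA), the family that Irf4 belongs to, occurred in 2, Ndufa9 and Ndufs3 (6.06%; 3.99% of all). Any of the NRF1, ETS, ERR and YY1 letters occurred in 18 windows (54.5%; 21.1% of all). These are matches of letters, not bound sites.

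The 250 bases before the start are printed for 5 genes, 5′ to 3′ on the gene's strand, with matches in capitals. They were picked after their values were seen. In floxed mice Ndufv3 and Ndufb3 had the highest differences between the tissues, and Ndufb2 and Ndufc1 the lowest. Ndufb4 had the most matches to the NRF1, ETS, ERR and YY1 letters, with the GC box and interferon regulatory factor letters left out. The windows are chr17:31519865-31520114 (plus strand) for Ndufv3, chr1:58586147-58586396 (plus) for Ndufb3, chr6:39592315-39592564 (plus) for Ndufb2, chr3:51408956-51409205 (minus) for Ndufc1 and chr16:37654369-37654618 (minus) for Ndufb4.
Ndufv3: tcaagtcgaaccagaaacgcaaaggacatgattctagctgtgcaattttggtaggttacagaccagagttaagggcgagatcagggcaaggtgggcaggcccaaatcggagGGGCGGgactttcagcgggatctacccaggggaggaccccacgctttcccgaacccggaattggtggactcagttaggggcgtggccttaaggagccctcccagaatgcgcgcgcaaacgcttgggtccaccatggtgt
Ndufb3: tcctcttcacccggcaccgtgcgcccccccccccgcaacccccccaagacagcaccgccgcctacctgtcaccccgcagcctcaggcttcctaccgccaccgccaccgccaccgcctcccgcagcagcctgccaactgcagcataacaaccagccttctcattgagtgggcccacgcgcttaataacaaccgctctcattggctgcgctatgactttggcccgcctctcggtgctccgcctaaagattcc
Ndufb2: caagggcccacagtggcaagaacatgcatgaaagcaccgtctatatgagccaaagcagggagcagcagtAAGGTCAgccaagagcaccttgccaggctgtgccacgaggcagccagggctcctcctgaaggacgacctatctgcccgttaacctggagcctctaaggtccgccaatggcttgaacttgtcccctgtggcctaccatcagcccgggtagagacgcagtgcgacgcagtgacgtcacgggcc
Ndufc1: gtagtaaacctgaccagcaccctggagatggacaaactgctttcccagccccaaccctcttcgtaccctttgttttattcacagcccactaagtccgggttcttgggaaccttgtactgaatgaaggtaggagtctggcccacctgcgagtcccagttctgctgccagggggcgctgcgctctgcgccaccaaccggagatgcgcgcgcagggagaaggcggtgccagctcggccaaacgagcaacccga
Ndufb4: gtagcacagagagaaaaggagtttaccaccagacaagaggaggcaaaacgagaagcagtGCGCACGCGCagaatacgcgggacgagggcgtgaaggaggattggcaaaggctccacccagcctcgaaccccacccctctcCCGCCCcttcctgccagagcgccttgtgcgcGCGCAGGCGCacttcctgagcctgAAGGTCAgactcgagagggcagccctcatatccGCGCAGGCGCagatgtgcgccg
The capitals mark a GC box in Ndufv3, ERR letters in Ndufb2, and in Ndufb4 the NRF1 letters at 3 places, a GC box read on the other strand and ERR letters. None of the letters searched lies in the stretches shown for Ndufb3 and Ndufc1.

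The gene models were short: 414 bases (Ndufc1) to 4224 bases (Ndufs1), with a median of 739 and 18 of 37 under 700 bases, against a median of 1993 over all models. Next to Ndufc1 the shortest were Ndufb4 (454 bases) and Ndufb2 (455 bases), and next to Ndufs1 the longest were Ndufa11 (3395 bases) and Ndufb8 (2290 bases). Length bears on the comparison of genes: Ndufs1 had 678 CPM and Ndufv1 488 CPM in floxed BAT, but 160 and 310 CPM per kb. Across the 37 genes, length and level per kb had a Pearson r of -0.16 in floxed BAT and -0.15 in floxed WV, given as a description because all genes share the same libraries.

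Per kb, the highest and lowest of the 37 genes lay 74.5-fold apart in floxed BAT and 30.8-fold apart in floxed WV. In floxed BAT the median over the 37 genes was 146 CPM per kb, and in floxed WV 143. Ndufa4 was the highest in floxed BAT, at 950 ± 604 CPM per kb (SD, n = 5), and in floxed WV, at 553 ± 123 (SD, n = 5). Ndufa10, a membrane-arm subunit with a kinase-like fold, was at 359 ± 76.3 CPM per kb in floxed BAT, and Ndufb9 at 347, a gap within their spread. In floxed WV Ndufb9 was at 407 CPM per kb and Ndufs7, a core subunit at the ubiquinone site, at 296. The lowest in all 4 groups was Ndufa11, at 12.8 ± 2.45 CPM per kb in floxed BAT and 18.0 ± 4.51 in floxed WV, and its model is the second longest. Without division by length Ndufa11 was at 43.3 CPM in floxed BAT, above Ndufb2 (41.9), Ndufa3 (34.4) and Ndufs5 (31.9). The order of the genes per kb was much alike in floxed BAT and floxed WV, with a Spearman rho of 0.82 over 37 genes, as a description.

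**Figure D1:**
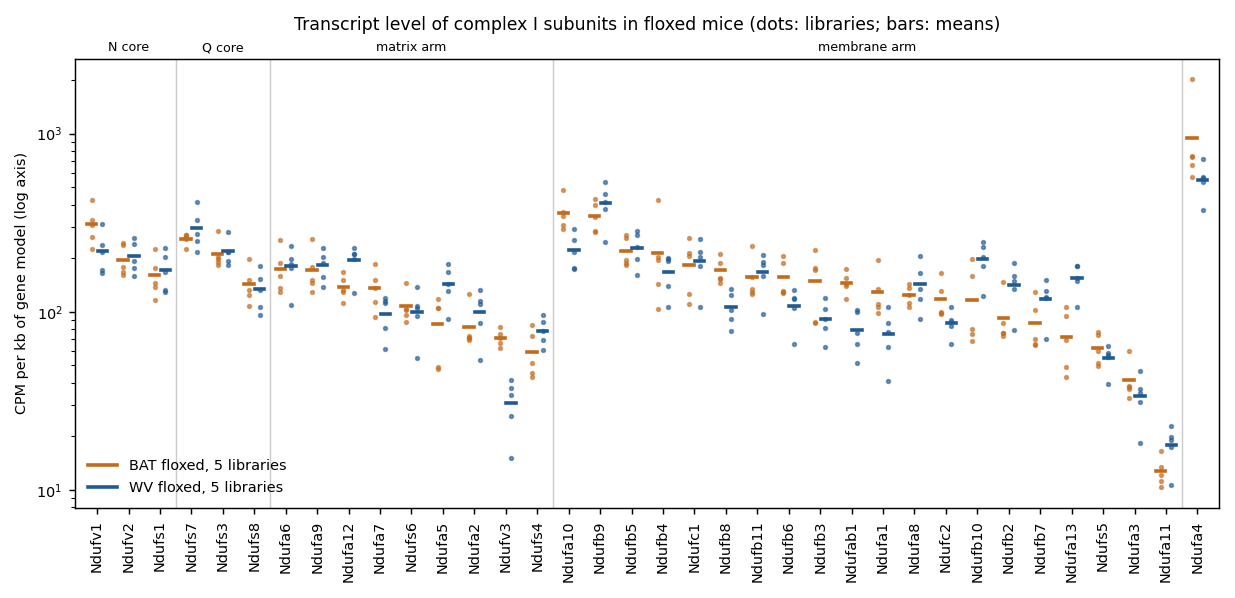
Level of 36 complex I subunits in CPM per kb of gene model (log axis) in floxed BAT (orange) and floxed WV (blue), 5 libraries each. Dots are libraries and bars are means, and genes are grouped by module and ordered by their BAT level. Ndufa4 stands highest at 950 CPM per kb in BAT with a wide spread, and Ndufa11 lowest at 12.8.

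Under TMM scaling some complex I subunits were higher and some lower in brown fat than in white muscle, with a median near that of all genes. With libraries scaled by their totals alone the median was 0.82 in floxed mice (all genes 0.79) and 1.11 in BATI4KO mice (all genes 1.09). The size of the median difference therefore depends on the scaling. In floxed mice 13 of the 37 genes differed between the tissues (35.1%), where 65.8% of all 16632 genes tested differed. BAT was higher for 9 of them (34.1% of all genes were higher) and lower for 4 (31.7% of all genes were lower). At an unadjusted p under 0.05 were 15 of 37 (68.5% of all genes). The median log2 difference over the 37 genes was 0.11, and 0.11 over all genes, with 14 of 37 below 0 (46.4% of all genes). Without WV library FX_5415 the median of the 37 was -0.063 and without BAT library FX_5497 it was 0.263, so the middle of the set had no settled sign. DESeq2 called 14 of 37 (57.2% of all genes). These fitted differences refer to BAT libraries with long tags, the only kind of title that WV has, because the fit carries a term for the kind of title.

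Ndufv3 had the greatest difference. It is an accessory subunit beside Ndufv1 at the NADH end of the matrix arm and is made in a long and a short splice form, which the gene counts do not separate. In floxed BAT it was at 119, 98.9, 112, 105 and 130 CPM (libraries FX_1, FX_2, FX_3, FX_5497 and FX_5503), and in floxed WV at 41.1, 23.9, 58.8, 54.0 and 65.7 CPM (libraries FX_5413, FX_5415, FX_5497, FX_5503 and FX_5514). Every BAT library was above every WV library. The difference was 2.67-fold (log2 1.42, SE 0.23, edgeR adjusted p = 1.1e-05). In BATI4KO mice it was 3.29-fold (log2 1.72, SE 0.21, edgeR adjusted p = 2.4e-07), with BAT at 83.8 to 135 CPM (median 103) and WV at 43.7, 30.8, 26.9, 42.2 and 34.9 CPM (libraries KO_5492 to KO_5496 in order).

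Ndufb3, a small membrane-arm subunit, was at 46.6, 46.2, 91.9, 94.4 and 118 CPM in floxed BAT and at 55.5, 33.8, 48.5, 42.9 and 63.3 CPM in floxed WV, in the same library order. The 2 lowest BAT libraries, FX_1 and FX_2, carry short numbers and lay within the WV range, while the other 3 lay above it. The fitted difference was 2.26-fold (log2 1.18, SE 0.23, edgeR adjusted p = 0.000143). Ndufa10 was at 439, 371, 354, 417 and 587 CPM in floxed BAT and at 351, 211, 261, 214 and 308 CPM in floxed WV, with no overlap (2.01-fold, SE 0.20 on the log2 scale, edgeR adjusted p = 0.000143). Groups that do not overlap with BAT higher were seen for 4 of the 37 genes, Ndufa10, Ndufab1, Ndufb8 and Ndufv3, and for 26.3% of all genes. With BAT lower they were seen for 0 of the 37 and for 25.7% of all genes.

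Among the core subunits only Ndufv1 passed the test. Ndufv1 binds the flavin and NADH. It was at 485, 415, 356, 517 and 667 CPM in floxed BAT and at 490, 261, 342, 268 and 375 CPM in floxed WV, overlapping through FX_5413 and FX_5514 of WV (log2 0.88, SE 0.21, edgeR adjusted p = 0.00099). Its neighbours in the N module did not pass: the log2 difference was 0.11 for Ndufv2 (edgeR adjusted p = 0.677) and 0.29 for Ndufs1 (edgeR adjusted p = 0.224). In the Q module Ndufs7 was at -0.21 (edgeR adjusted p = 0.302), Ndufs3, which carries no cofactor, at 0.25 (0.198) and Ndufs8, which binds iron-sulfur clusters, at 0.45 (0.0989). Whether Ndufv1 differs from its neighbours in this respect was not tested.

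The other genes higher in BAT were all listed here under the membrane arm: Ndufab1, the mitochondrial acyl carrier protein (log2 0.88), Ndufb8 (0.81), Ndufa1 (0.73), Ndufb6 (0.66) and Ndufc2 (0.54). Ndufab1 was at 110 to 163 CPM in floxed BAT and at 48.1 to 96.0 CPM in floxed WV, with no overlap. The calls of Ndufa1, Ndufb6 and Ndufc2 were lost without BAT library FX_5503 (edgeR adjusted p = 0.0694, 0.0631 and 0.0897) and without WV library FX_5415 (0.0942, 0.0701 and 0.148). Ndufc2 also lost its call without WV library FX_5503 (0.0503) and with long tags alone (0.0987). The 9 supernumerary subunits listed under the matrix arm gave 1 call, Ndufv3. Ndufs4, whose loss in mice gives a well-known mitochondrial disease model, was at -0.21 (edgeR adjusted p = 0.453).

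The 4 genes lower in BAT were Ndufb2, Ndufc1, Ndufa13 and Ndufa11, all of the membrane arm. Ndufb2 was at 34.7, 34.8, 66.8, 33.4 and 39.6 CPM in floxed BAT and at 61.0, 36.0, 72.5, 67.6 and 85.1 CPM in floxed WV, overlapping through BAT library FX_3 and WV library FX_5415 (log2 -0.70, SE 0.25, edgeR adjusted p = 0.018). Ndufc1 was at 85.6, 88.5, 107, 45.7 and 52.1 CPM in floxed BAT and at 75.2, 44.1, 90.0, 84.5 and 107 CPM in floxed WV (log2 -0.62, SE 0.22, edgeR adjusted p = 0.0174). Its 3 BAT libraries with short numbers lay above the middle floxed WV library, FX_3 just above the highest one, so the fitted sign rests on the libraries with long tags. Ndufa13, also known as GRIM-19, was at 54.1, 61.6, 86.5, 118 and 134 CPM in floxed BAT and at 226, 133, 193, 185 and 227 CPM in floxed WV (log2 -0.56, SE 0.19, edgeR adjusted p = 0.0137), overlapping where FX_5503 of BAT met FX_5415 of WV. Ndufa11 stood at -0.55 on the log2 scale (edgeR adjusted p = 0.0186).

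Each of these 4 calls was lost when some library was left out. Without BAT library FX_5497 all 4 were lost (edgeR adjusted p = 0.0867 for Ndufb2, 0.0787 for Ndufc1, 0.0635 for Ndufa13 and 0.1 for Ndufa11). Without WV library FX_5514 those of Ndufb2 (0.051), Ndufc1 (0.0535) and Ndufa11 (0.0537) were lost, and without BAT library FX_5503 that of Ndufa11 (0.051). Called under each of the 29 alternatives were 6 genes: Ndufa10, Ndufab1, Ndufb3, Ndufb8, Ndufv1 and Ndufv3. Another 10 genes had a log2 difference below 0 without passing, among them Ndufa12 (-0.38, edgeR adjusted p = 0.0538) and Ndufs7.

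The scaling of the libraries set the sign of the lower genes. When libraries were scaled by their totals alone, every subunit moved up by 0.70 to 0.74 in floxed mice and the median of all genes by 0.68. Then 28 of the 37 genes were called, all 28 higher in BAT, and Ndufb2 (0.021), Ndufc1 (0.10), Ndufa13 (0.16) and Ndufa11 (0.17) were above 0. Over all genes the split moved from 5676 higher and 5276 lower to 9474 higher and 2647 lower.

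The tissue comparison in BATI4KO mice uses other libraries but the same term for title kind and the same estimate of spread. It gave 14 called genes (37.8%, against 70.5% of all genes), 11 higher in BAT (37.4% of all) and 3 lower (33.1% of all), with a median of 0.17 (all genes 0.14). A difference below 0 was found for 14 of 37 (45.2% of all genes), and DESeq2 called 14 (61.2% of all genes). Groups that do not overlap were seen for 4 genes with BAT higher, Ndufa1, Ndufa7, Ndufab1 and Ndufv3 (28.8% of all genes), and for 0 with BAT lower (27.6%). All 9 genes higher in floxed mice were among the 11 (81.8% of these), which also held Ndufa7 (log2 0.57) and Ndufs5 (0.54). The lower genes were Ndufb2 (-0.60), Ndufa13 (-0.51) and Ndufa11 (-0.43), 75% of the 4 lower in floxed mice. Ndufc1 was at -0.35 (edgeR adjusted p = 0.119). Ndufa11 lost its call under 12 of 29 alternatives, with edgeR adjusted p up to 0.138. Ndufb2 lost its call without WV library KO_5492 (edgeR adjusted p = 0.0555) and Ndufs5 without BAT library KO_5414 (0.0504). Ndufa7 and Ndufs5 also lost theirs with the trend on gene length removed (0.121 and 0.184). Without WV library FX_5415 the median of the 37 was 0.081, and with the length trend removed -0.0075. Under library totals 36 of the 37 were called, all higher in BAT, and Ndufb2 (0.34) and Ndufa13 (0.44) were above 0.

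**Figure D2:**
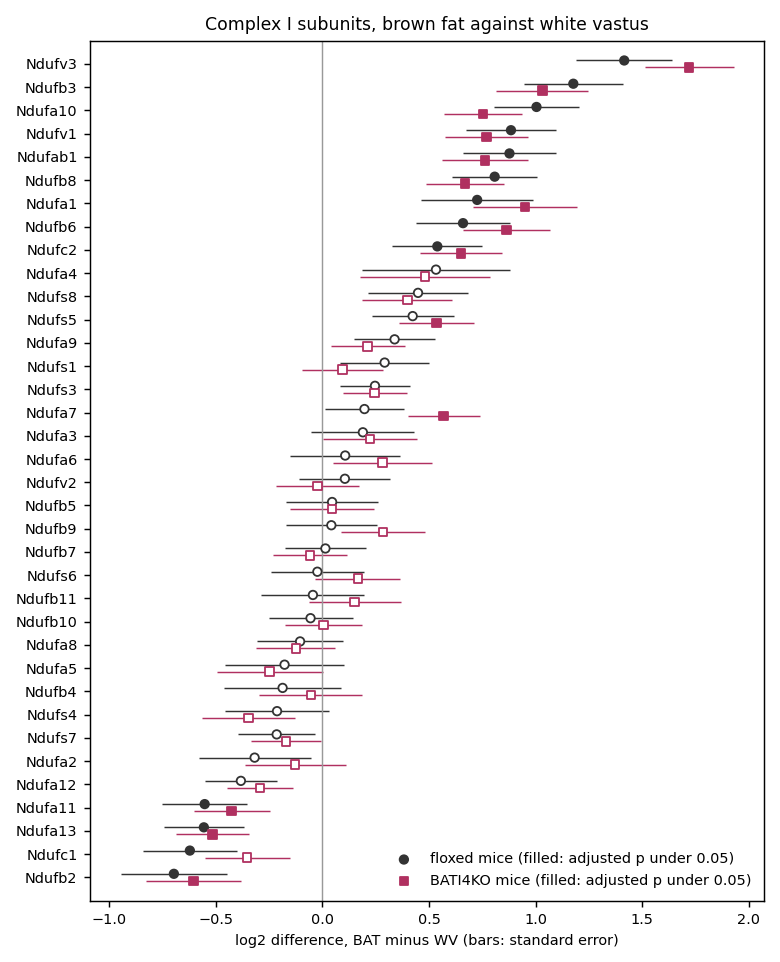
Fitted log2 difference between BAT and WV (x axis, with standard errors) for 36 subunits, in floxed mice (circles) and BATI4KO mice (squares). Filled symbols passed an adjusted p of 0.05. Ndufv3 stands farthest to the right, at 1.42 and 1.72, and Ndufb2 farthest to the left, at -0.70 and -0.60.

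In BAT of BATI4KO mice no complex I subunit passed the test, and all 37 fitted differences were below 0 (36 under library totals, 28 in libraries with long tags alone). The call count was 0 of 37 (0.0436% of 16051 genes), with 2 of 37 at an unadjusted p under 0.05 (14.7% of all genes) and 0 of 37 by DESeq2 (2.37% of all genes). A log2 difference below 0 was found for 51.2% of all genes. The median of the 37 was -0.23 and that of all genes -0.01, and the 37 values ran from -0.44 (Ndufa4) to -0.13 (Ndufs7). The subunits vary together between libraries, as described further on, so 37 equal signs are not 37 separate observations. By module the medians were -0.23 for the N core, -0.17 for the Q core, -0.22 for the supernumerary matrix arm and -0.24 for the membrane arm.

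Ndufb7, a membrane-arm subunit that faces the intermembrane space, had the smallest p. It was at 37.7, 35.1, 34.8, 54.6 and 69.3 CPM in floxed BAT and at 25.9 to 60.6 CPM in the 6 BATI4KO libraries (median 38.4), and the groups overlapped (log2 -0.30, SE 0.09, edgeR adjusted p = 0.193). Within the short-numbered libraries the BATI4KO values, 25.9, 29.8 and 28.6 CPM, were all below the floxed ones. Among those with long tags the BATI4KO values were 60.6, 52.2 and 46.9 CPM, the first of them between the floxed ones. For Ndufb2 the log2 value was -0.41 (edgeR adjusted p = 0.325) and for Ndufa3 -0.32 (0.367). Library FX_3 was the highest for both, at 66.8 CPM of Ndufb2 and 50.5 CPM of Ndufa3, where the other 10 BAT libraries had at most 39.6 and 33.4 CPM. Without that library the differences were -0.19 for Ndufb2 and -0.17 for Ndufa3.

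The difference was uneven between libraries. Against the floxed mean of the same title kind, 37, 33 and 37 of the 37 subunits were lower in libraries KO_1, KO_2 and KO_3, and 6, 34 and 26 were lower in libraries KO_5414, KO_5492 and KO_5494. The summed level of the 37 was 5792, 5366, 7252, 6047 and 7924 CPM in the floxed libraries and 4202 to 7639 CPM in the BATI4KO libraries (median 5804), where library KO_5414 was the highest. Within libraries with short numbers the median log2 difference was -0.35, and within those with long tags -0.043 with 28 of 37 below 0. Without library FX_3 the median over all BAT libraries was -0.12. Groups that do not overlap were seen for 0 of the 37 (0.331% of all genes lower, 0.607% higher).

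Muscle transcripts were mostly higher in the BATI4KO libraries of BAT. All 26 genes of the contractile list, myosins, troponins and the like, were above 0 in BATI4KO (median 2.57). At an unadjusted p under 0.05 were 24 of the 26 (14.7% of all genes), and none of the 26 genes passed. Their summed level was 302 to 1385 CPM in floxed BAT and 742 to 19573 CPM in BATI4KO BAT, and none was at 0. Library KO_3 was the highest, and library KO_2, at 742 CPM, lay within the floxed range. These genes share the same libraries, so 26 equal signs are not 26 separate observations. Of the 11 brown adipocyte markers 10 were below 0 (median -0.19), summing to 3332 to 9053 CPM in floxed and 2623 to 6082 CPM in BATI4KO libraries. The 7 lymphocyte markers tested were all above 0 (median 0.96), with sums of 12.2 to 20.9 and 15.3 to 56.7 CPM. With the muscle score as a covariate the median of the 37 subunits was -0.17. Without library KO_3 it was -0.18. Muscle transcripts were mostly higher in BATI4KO libraries, so the covariate and genotype cannot be fully told apart. The part of muscle or of the other markers in the result was not tested.

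In WV of BATI4KO mice the picture was again of small differences below 0, none passing. The call count was 0 of 37 (0.00688% of 14529 genes), with 9 of 37 at an unadjusted p under 0.05, all 9 lower (8.91% of all genes passed in either direction, 5.68% as lower), and 0 of 37 by DESeq2 (0.677% of all genes). Below 0 were 36 of 37 (51.5% of all genes), with a median of -0.30 (all genes -0.01). Groups that do not overlap were seen for 0 of the 37 (0.679% of all genes lower, 0.421% higher). By module the medians were -0.13 for the N core, -0.17 for the Q core, -0.43 for the supernumerary matrix arm and -0.34 for the membrane arm.

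Ndufa7, a matrix-arm subunit, had the smallest p. It was at 39.3, 29.6, 55.7, 53.7 and 57.3 CPM in floxed WV and at 36.4, 28.2, 29.4, 36.4 and 35.0 CPM in BATI4KO WV (log2 -0.53, SE 0.17, edgeR adjusted p = 0.431). The groups overlapped through library FX_5415 alone, at 29.6 CPM. Ndufb6 was at 56.4, 35.1, 64.2, 63.0 and 71.0 CPM in floxed and at 54.8, 32.6, 40.1, 44.0 and 35.8 CPM in BATI4KO WV (log2 -0.50, SE 0.19, edgeR adjusted p = 0.485). Ndufb11, encoded on the X chromosome, stood at -0.52 on the log2 scale (SE 0.20, edgeR adjusted p = 0.494).

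The WV libraries fell apart within their groups. The summed level of the 37 subunits was 7323, 4375, 6210, 5534 and 7269 CPM in libraries FX_5413, FX_5415, FX_5497, FX_5503 and FX_5514, and 6752, 4554, 4549, 6519 and 4926 CPM in libraries KO_5492 to KO_5496. All 37 subunits were below the floxed mean in libraries KO_5493, KO_5494 and KO_5496, and 15 and 18 of 37 in libraries KO_5492 and KO_5495. Mb, the oxygen-binding myoglobin of oxidative fibres, was at 1185 CPM in library FX_5415 and at 947, 937 and 702 CPM in libraries KO_5493, KO_5494 and KO_5496. It was at 2695 to 4444 CPM in 5 of the other 6 libraries, and at 419 CPM in library FX_5503. Esrra, a nuclear receptor that drives respiratory genes, was at 86.5 to 101 CPM in these 5 libraries of low Mb and at 129 to 146 CPM in the rest. The part of fibre type or dissection in the difference between genotypes was not tested. Of the 26 contractile genes 16 were below 0 (median -0.07). All 7 macrophage markers were below 0 (sums of 40.4 to 156 CPM in floxed and 58.7 to 99.4 CPM in BATI4KO WV), as were 7 of 8 general adipocyte markers (220 to 330 and 170 to 355 CPM), and none of these markers was at 0 in a whole group. The 3 erythroid markers were below 0 as well (median -0.85), with sums of 16.3 to 36.2 CPM in floxed and 11.4 to 22.1 CPM in BATI4KO WV. At an unadjusted p under 0.05 were 2 of the 3 (8.91% of all genes in either direction), and none passed. The part of these cell types in the result was not tested.

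**Figure D3:**
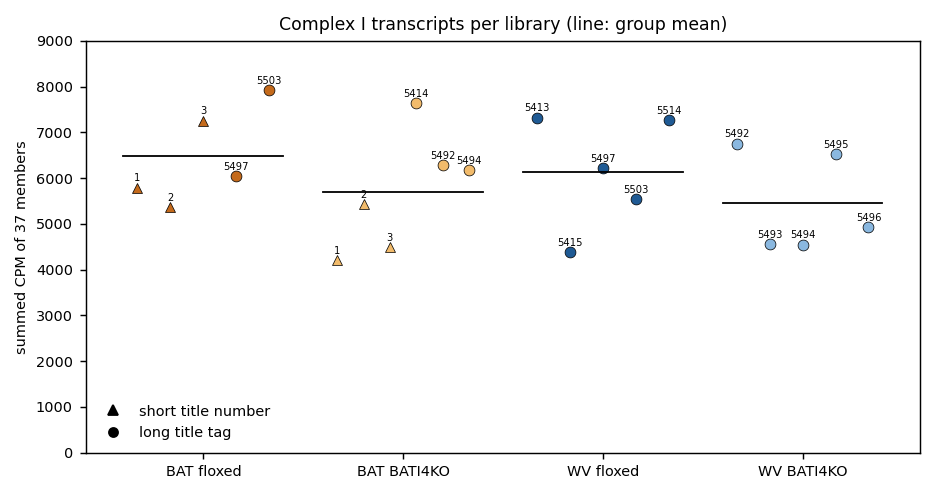
Summed CPM of the 37 complex I genes in each library (y axis from 0), by tissue and genotype, with the title number beside each point. Triangles are BAT libraries with short numbers, circles libraries with long tags, and lines group means. In BATI4KO WV, libraries KO_5493, KO_5494 and KO_5496 lie at 4554, 4549 and 4926 CPM and libraries KO_5492 and KO_5495 at 6752 and 6519.

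Model length went with the genotype difference in WV. Over the 37 subunits the log2 difference and log2 length had a Pearson r of 0.59, and over all genes tested 0.23. The 18 subunits under 700 bases had a median of -0.43 and the 19 longer ones -0.16. Over all genes the same split gave -0.28 and -0.004, so short genes in general had values below 0 in WV. With a smooth trend on length removed from all genes, the median of the 37 was -0.13 and 34 were below 0. Rmrp, the short RNA of the RNase MRP enzyme, was also uneven by genotype in WV. It was at 20.9, 30.9, 143, 149 and 187 CPM in libraries FX_5413, FX_5415, FX_5497, FX_5503 and FX_5514 and at 16.4 to 21.6 CPM in the 5 BATI4KO libraries, so that library FX_5413 alone lay within the BATI4KO range. Its link with the differences of the short subunits was not tested. In BAT the correlation was 0.22 over the 37 and 0.05 over all genes tested. The subunit medians were -0.25 and -0.23. Over all genes the split gave -0.12 and -0.004, so short genes in general had values below 0 in BAT too. Removing the trend gave a median of -0.24 over the 37. The lowest values among longer models in WV were those of Ndufb11 (853 bases), Ndufv3 (1579 bases, -0.47) and Ndufa11 (-0.38). Of the core subunits, Ndufs7 (758 bases) was at -0.19, Ndufv1 (1572 bases) at -0.13 and Ndufs1 at -0.05.

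**Figure D4:**
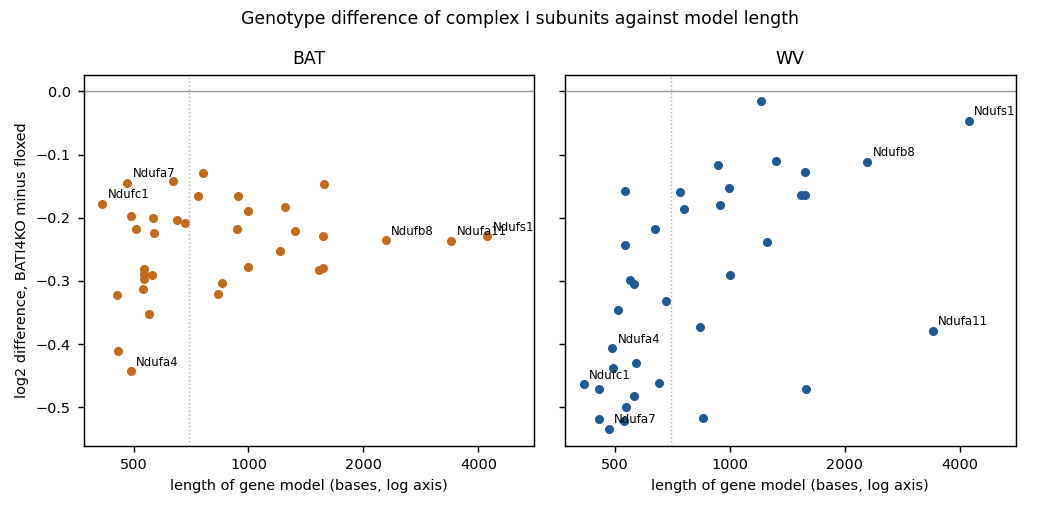
Genotype log2 difference (BATI4KO minus floxed) against gene-model length in bases (log axis) for 36 subunits, in BAT (left) and WV (right). The dotted line is at 700 bases. In WV the shortest genes such as Ndufc1 and Ndufa7 lie near -0.5 and the longest, Ndufs1, at -0.05. Over all 37 genes the Pearson r with log2 length was 0.59 in WV and 0.22 in BAT.

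The genotype difference was not found to differ between the tissues for any subunit. The interaction term called 0 of 37 (0.018% of 16632 genes), with 0 of 37 at an unadjusted p under 0.05 (10.6% of all genes) and 0 of 37 by DESeq2 (0.387%). Below 0 were 17 of 37 (48.2% of all genes). The median was 0.041, with a range from -0.25 (Ndufa10) to 0.37 (Ndufa7). A p that misses the threshold does not show that the tissues acted alike.

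**Figure D5:**
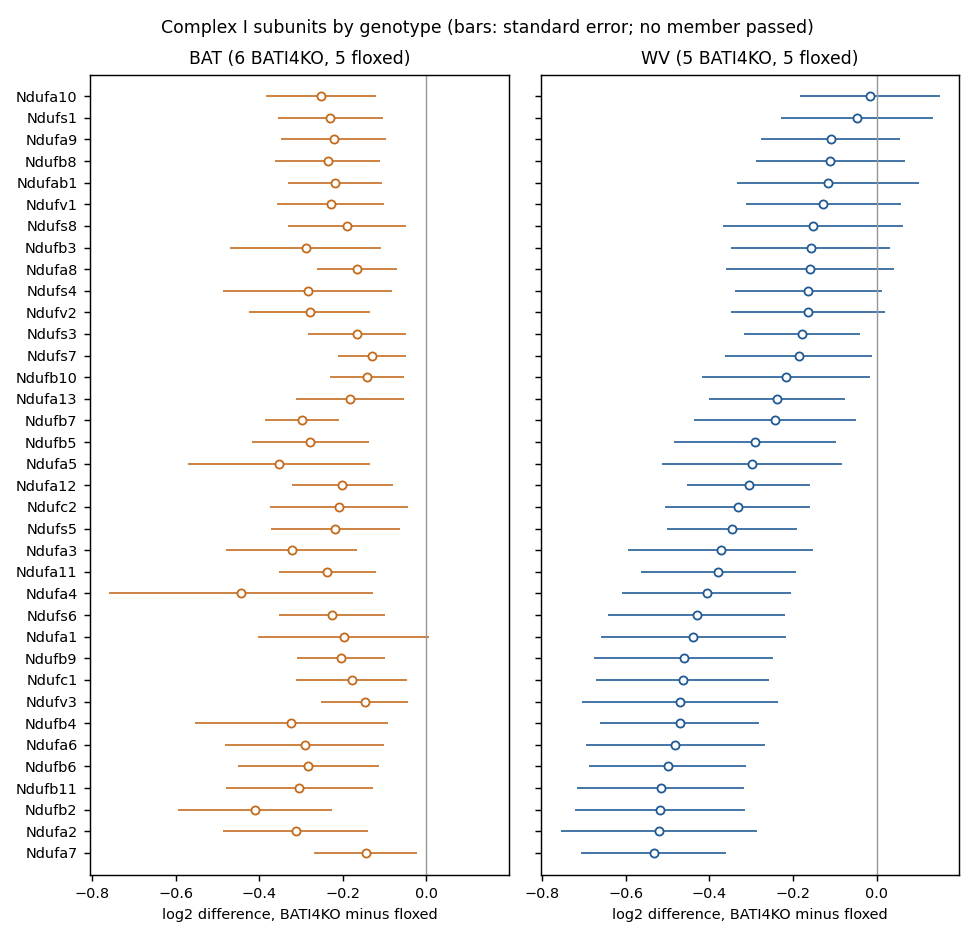
Log2 difference between BATI4KO and floxed mice with its standard error for 36 subunits, in BAT (left) and WV (right), genes ordered by their WV value. The points run down to -0.44 in BAT (Ndufa4) and -0.53 in WV (Ndufa7), and open symbols mark that none passed.

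Within BAT the kind of title number separated the subunits more than genotype did in number of calls. Libraries with short numbers and with long tags occur in both genotypes, and the style term of the fit called 17 of 37 subunits (31.3% of all genes): 14 lower in libraries with short numbers (16.4% of all) and 3 higher (14.9% of all). DESeq2 also called 17 (32.6% of all genes). The median was -0.19 (all genes 0.03). Of the core subunits 5 of 7 were lower, among them Ndufv1, Ndufs1, Ndufs3 and Ndufs8.

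Other transcripts went with the kind of title number as well. Of the 42 nuclear subunits of complexes II to V, 19 were lower under short numbers and 4 higher. Over all genes tested, here and for the marker lists that follow, 16.4% were lower and 14.9% higher. Of the 11 brown adipocyte markers 5 were lower and 2 higher, of the 10 general adipocyte markers 4 were lower and 1 higher, and of the 26 contractile genes 0 were called. Cidea, a lipid droplet protein of brown fat, had 929 to 1290 CPM in the 5 libraries that carry long tags and no more than 588 CPM (lowest 437) in the other 6, with no overlap. Rmrp was at 221 to 967 CPM under short numbers and at 8.78 to 23.8 CPM with long tags, again with no overlap. The part of these in the differences of the subunits was not tested.

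Ndufb10, a membrane-arm subunit facing the intermembrane space, showed it best. It ranged from 37.6 to 50.8 CPM over the 6 short-numbered libraries and was at 102, 125, 124, 108 and 109 CPM in the 5 with long tags, a 2.59-fold difference (log2 -1.38, SE 0.09, edgeR adjusted p = 4.0e-06). In WV, where all titles carry long tags, it was at 77.6 to 157 CPM. Next came Ndufa5 (log2 -0.99), Ndufa13 (-0.97), Ndufb3 (-0.85) and Ndufb7 (-0.84). Ndufc1 went the other way, with 60.9 to 107 CPM under short numbers and 40.1 to 52.5 CPM with long tags (log2 0.82, SE 0.13, edgeR adjusted p = 0.000922), as did Ndufb4 (0.77) and Ndufa7 (0.44). Groups that do not overlap were seen for 6 lower subunits, among them Ndufa13, Ndufa9, Ndufb10, Ndufb7 and Ndufs1 (9.19% of all genes), and 1 higher, Ndufc1 (6.32%). Of the 17 calls 15 held under each of 17 alternatives. That of Ndufb4 was lost without libraries FX_5497 or FX_5503 or library KO_2 (edgeR adjusted p = 0.0728, 0.0759 and 0.0529). That of Ndufv3 (log2 -0.30, edgeR adjusted p = 0.0442) was lost under 12 alternatives, with edgeR adjusted p up to 0.167.

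The levels of the subunits varied together from library to library. Pairs of other genes were not examined, so this was not shown to be particular to complex I. After group means and title kind were taken out, the median correlation between pairs of subunits was 0.76 in BAT (11 libraries, 666 pairs, 25 of them below 0) and 0.85 in WV (10 libraries, 666 pairs, 0 below 0), as a description, since all pairs share the libraries and their scaling. The correlation of a subunit with the mean of the other members was highest for Ndufb5 in BAT (0.99) and for Ndufb10 in WV (0.99). It was lowest for Ndufv1 in both, at 0.19 in BAT and 0.75 in WV. In BAT, Ndufa8 (0.20), Ndufa10 (0.43) and Ndufs7 (0.49) also stood apart from the rest.

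Ndufa4 stood out for its spread in floxed BAT. It was at 329, 368, 995, 283 and 362 CPM in floxed BAT, where library FX_3 was far above the others. It was at 220 to 486 CPM in BATI4KO BAT (median 306), at 277, 184, 283, 263 and 354 CPM in floxed WV and at 277, 140, 172, 255 and 198 CPM in BATI4KO WV. None of its differences passed: between tissues the log2 difference was 0.53 in floxed mice (edgeR adjusted p = 0.182), and by genotype -0.44 in BAT (0.537) and -0.41 in WV (0.597). Ndufa4l2, its paralog, was at 1.78 CPM in floxed BAT.

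Other genes of the pathway gave no call by genotype and many by tissue, here under TMM scaling alone. Of 42 nuclear subunits of complexes II to V, 39 were below 0 in BAT by genotype (median -0.23) and 41 in WV (-0.20), with none called in either. The values in BAT ran from -0.47 to 2.96, the highest being that of Cox6a2 (edgeR adjusted p = 0.195), the muscle form of a cytochrome oxidase subunit, which had a mean of 0.220 CPM in floxed and 1.60 CPM in BATI4KO BAT. Of 19 complex I assembly factors, 18 were below 0 in BAT (median -0.12) and 15 in WV (-0.06), again with none called. Between tissues in floxed mice 10 assembly factors were higher in BAT and 6 lower (34.1% and 31.7% of all genes). Foxred1, needed for assembly of the complex, was at 93.1 CPM in floxed BAT and 22.5 CPM in floxed WV (log2 2.31, edgeR adjusted p = 1.8e-13). Tmem126a, an assembly factor of the membrane arm, was lower (log2 -0.75, edgeR adjusted p = 0.000391). Of the 42 genes of complexes II to V, 11 were higher and 9 lower, shares below those of all genes. The isoform pair of cytochrome oxidase subunit 6a gave the extremes, with Cox6a1 at 274 and 6.51 CPM (log2 5.65) and the muscle form Cox6a2 at 0.220 and 162 CPM (log2 -10.24). By comparison the complex I subunits stayed between -0.70 and 1.42.

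Among 12 regulators of mitochondrial genes, 5 were higher and 4 lower in floxed BAT than in floxed WV (34.1% and 31.7% of all genes). The coactivator Ppargc1a was at 191 and 75.4 CPM (edgeR adjusted p = 0.000213) and Ppargc1b at 117 and 15.5 CPM (log2 2.75, edgeR adjusted p = 3.0e-08). Tfam, which packages and transcribes mitochondrial DNA, was lower in BAT, at 33.6 and 71.6 CPM (log2 -0.89, edgeR adjusted p = 1.2e-07). None of the 12 was called by genotype in BAT or WV. The lowest in BAT was Esrrb, at -1.22 (edgeR adjusted p = 0.197) on a mean of 1.35 CPM in floxed BAT. Of the mitochondrially encoded complex I subunits the tables hold mt-Nd4, at 9366 ± 1943 CPM in floxed BAT (SD, n = 5). It did not pass by genotype (log2 -0.24 in BAT, edgeR adjusted p = 0.417; 0.33 in WV, 0.853) and was higher in BAT libraries with short numbers (log2 0.64, edgeR adjusted p = 0.00367), where 14 nuclear subunits were lower.

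Some counts can hold reads of other genes. By RefSeq gene neighbours 10 of the 37 genes overlap another gene, among them Ndufa13 (Tssk6), Ndufa1 (Rnf113a1), Ndufb11 (Rbm10) and Ndufv2 (Ankrd12), and without a stated strand their reads cannot be told apart. By symbol there are 5 annotated pseudogenes of members, of Ndufa11, Ndufa12, Ndufab1, Ndufs5 and Ndufs6, whose reads may be split between copies. The values of these genes are uncertain to that extent. Copies under other symbols are not in this count, so the remaining members were not shown to be free of them.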

How the data were processed

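RNA was depleted of ribosomal RNA, primed with random hexamers and tagmented, per the labels' protocols. The authors deposited raw read counts per gene model, with a symbol and a model length, in 1 table per tissue, per the file headers. Alignment with TopHat2 2.0.14 to build mm9 and counting with featureCounts 1.4.6 are taken from the tool names in the submitters' processing notes, which also list edgeR. No setting or strandedness is given there.

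Genes were kept by filterByExpr and libraries scaled by TMM. The quasi-likelihood F test of edgeR 4.0.16 (R 4.3.3) gave p-values, adjusted by Benjamini-Hochberg over all genes of the fit (threshold 0.05). BAT (16051 genes) carried a term for title kind, WV (14529 genes) none. Tissue differences and the interaction came from 1 fit over 21 libraries and 16632 genes with 4 groups and title kind. Standard errors are the log2 difference divided by the root of F. The steps were tested on simulated data. DESeq2 1.42.0, other scalings (RLE, library totals), other filters, removal of a smooth length trend (span 0.5), each title kind alone, a muscle covariate, blocks by title number and each library left out were alternatives. In 45 pairs of libraries of a group, the smallest chi-square per gene was 24.6, above sampling noise.

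Given library by library or by range were the core subunits, the 3 smallest p per direction by genotype, the 3 extremes between tissues, the 3 shortest and 3 longest models and Ndufa4; genes called between tissues or title kinds, lists and printed promoters were added. One gene is not reported here by name, and counts include it. The members, lists and rules were chosen with earlier results of these data known. Counts carry no molecular identifiers, so they are not independent molecules.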

Additional observations from a re-analysis of the deposited data

Results flagged for a closer look

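Among 88 sets of 5 or 6 libraries (22 values, the summed level and single genes, in 4 groups), 4 held a library whose gap to its nearest neighbour was large against the whole range of the group. Chance alone gives about 1 in 20, so 4 of 88 is near the number that chance gives. The genes share libraries and vary together, so the 88 sets are not independent. Library FX_3 of BAT accounted for 3 of the 4. It had 66.8 CPM of Ndufb2 (next highest 39.6), 50.5 CPM of Ndufa3 (next 31.8) and 995 CPM of Ndufa4 (next 368). The fourth was Ndufs3, a core subunit of the Q module, at 267 CPM in floxed BAT library FX_5503 (next 192). The genotype differences of Ndufb2 and Ndufa3 without library FX_3 stand in the results above.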

How the results depend on the processing

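By genotype, 0 of 37 subunits were called in BAT under all 22 alternatives and in WV under all 16, and the medians kept their sign. Leaving out 1 library at a time gave 0 calls and medians of -0.320 to -0.117 in BAT and -0.416 to -0.212 in WV. For the interaction it gave 0 calls and medians of -0.038 to 0.160. For the tissue comparison it gave 10 to 14 calls and medians of -0.063 to 0.263 in floxed mice, and 13 to 16 calls and medians of 0.081 to 0.248 in BATI4KO mice. For title kind it gave 15 to 20 calls and medians of -0.308 to -0.114.

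Scaling by library totals, whose construction moves all genes, gave 28 calls and a median of 0.823 in floxed mice and 36 calls and a median of 1.113 in BATI4KO mice. Then Ndufb2 was at 0.0213, Ndufc1 at 0.101 and Ndufa13 at 0.164 in floxed mice, and at 0.338, 0.595 and 0.437 in BATI4KO mice. In BAT it moved the median of all genes by 0.136 and that of the subunits to -0.0925, which is -0.22 relative to all genes. With the length trend removed the median in BATI4KO mice between tissues was -0.0075.

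Title numbers were not shown to pair libraries: the correlations of deviations at the same number were 0.134, -0.121 and 0.0672 for short numbers, and 0.0026 (BATI4KO) and 0.0662 (floxed) for the 4 tags in both tissues, which give 1 value per genotype because deviations within a pair mirror each other. With a replicate block by number the BAT genotype median was -0.225 with 0 calls. With a replicate block by tag over both tissues (8 libraries, both genotypes together) the tissue difference had a median of -0.0037 and the interaction one of 0.127. There Ndufa7 (log2 0.19, edgeR adjusted p = 0.354) and Ndufs5 (0.34, 0.053), called in BATI4KO mice without the block, did not pass, and Ndufc1 did (-0.62, 0.0103). Adding the models of a symbol gave nothing to compare, since each subunit has 1 model. The subunits had at least 15.3 CPM in every library. What limited the number of calls was not tested.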
